A study of Mus musculus with 64 samples.

Results

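The 28 genes described here make cholesterol from acetyl-CoA, adjust that synthesis to the sterol content of the cell, or move, export and store cholesterol. They were taken by symbol from the deposited read counts of WT and AS mice given vehicle or corticosterone (CORT), where they are 28 of the 55414 genes in the table of the acute experiment and 28 of the 55573 genes in the table of the continuous experiment. By role, 8 encode enzymes of the mevalonate and isoprenoid steps, 11 enzymes of the steps from squalene to cholesterol, 4 regulators, and 5 proteins of transport, efflux and storage. None of them is a lipoprotein receptor, so that uptake is represented only by proteins that carry cholesterol onward inside the cell. All 28 passed the filter on low counts in both tissues, Fdps in hippocampus through the AS vehicle mice alone.

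RNA was sequenced from F1 hybrid male mice of 10 to 18 weeks, bred from WT C57BL/6J males and 129sv females that carried the Ube3a deletion on 1 allele. AS mice, a model of Angelman syndrome, inherited the deletion of exon 5 (Ube3atm1Alb) from their mother, and WT mice were their littermates without it. Neurons silence the paternal allele and so lack UBE3A in AS mice, whereas non-neuronal cells such as hepatocytes keep an active paternal allele. In the acute experiment, mice received a subcutaneous injection of 3 mg/kg CORT or of vehicle (ethanol in PBS), and the hippocampus was collected 3 h later from 6 mice per group. In the continuous experiment, a pellet under the skin released CORT for 5 days before the left hippocampus and the liver of 5 mice per group were collected on day 6. The CORT pellet held 20 mg CORT and 80 mg cholesterol and the vehicle pellet held 100 mg cholesterol, so that every mouse of the continuous experiment, controls included, carried a cholesterol pellet and the vehicle mice carried more of it. The hippocampi H13 (WT vehicle) and H9 (AS vehicle) of the continuous experiment, which the study set aside as technical outliers, were left out here, leaving 4 vehicle mice per genotype.

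Cells control this pathway by feedback. When sterols in the endoplasmic reticulum are low, SCAP escorts the transcription factor SREBP2 to the Golgi for activation, and SREBP2 raises the genes of nearly every enzyme of the pathway together. When sterols are high, the INSIG proteins hold SCAP back. Excess sterol instead activates LXR, which raises the efflux transporters ABCA1 and ABCG1. The liver makes cholesterol for the whole body and for bile acids, whereas the brain, shut off from plasma lipoproteins, makes its own, in adults mainly in astrocytes and oligodendrocytes.

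The acute libraries held 19049461 to 21052967 counts on genes, the continuous hippocampi 19112929 to 21783009 and the livers 18612550 to 20868924. Levels are given as CPM, counts scaled to library size with TMM normalization. A count of 3 in a library corresponds to between 0.138 and 0.161 CPM, a floor for counting error only. Changes are log2 differences ± standard error (SE) from the quasi-likelihood test of edgeR, with p-values adjusted by the Benjamini-Hochberg method over all genes tested and called below 0.05. The p-values measure the spread between the mice of these groups. Ube3a itself did not separate the genotypes in hippocampus, at 64.1 to 82.0 CPM in AS and 52.5 to 84.7 CPM in WT mice of the acute experiment and at 69.2 to 97.5 CPM in AS and 72.9 to 98.0 CPM in WT mice of the continuous one, so the count over the whole gene does not check the labels there. In liver it was at 28.5 to 38.6 CPM in AS mice and 41.8 to 54.4 CPM in WT mice, without overlap.

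In the results below, 8 of the genes passed the test for CORT in both genotypes of 1 tissue, and RefSeq has a promoter entry for 7 of these. The promoters of the 6 with the smallest p are shown, namely Hmgcs1, Sc5d, Cyp51, Lss and Idi1, which passed in hippocampus, and Soat1, which passed in liver. Each is the 250 bases before the transcription start in RefSeq on GRCm38.p6, on the coding strand, with matches to 3 motifs in capitals. The motifs, searched on both strands, were a sterol response element bound by SREBP (TCACNCCAC), the CCAAT box (CCAAT, or ATTGG on the other strand) and the GC box (GGGCGG, or CCGCCC on the other strand).
Hmgcs1 (chr13:119690101-119690350, plus strand): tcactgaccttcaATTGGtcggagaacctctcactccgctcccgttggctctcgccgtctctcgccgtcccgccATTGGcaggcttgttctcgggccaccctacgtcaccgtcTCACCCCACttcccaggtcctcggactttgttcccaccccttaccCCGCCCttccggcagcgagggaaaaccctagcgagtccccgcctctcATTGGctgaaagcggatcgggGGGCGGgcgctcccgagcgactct
Sc5d (chr9:42264301-42264550, minus strand): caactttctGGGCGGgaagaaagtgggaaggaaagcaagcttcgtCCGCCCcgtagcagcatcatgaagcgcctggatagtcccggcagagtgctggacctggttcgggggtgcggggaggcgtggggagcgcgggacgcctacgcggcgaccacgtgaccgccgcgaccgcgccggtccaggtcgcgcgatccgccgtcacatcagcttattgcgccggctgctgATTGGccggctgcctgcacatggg
Cyp51 (chr5:4104698-4104947, minus strand): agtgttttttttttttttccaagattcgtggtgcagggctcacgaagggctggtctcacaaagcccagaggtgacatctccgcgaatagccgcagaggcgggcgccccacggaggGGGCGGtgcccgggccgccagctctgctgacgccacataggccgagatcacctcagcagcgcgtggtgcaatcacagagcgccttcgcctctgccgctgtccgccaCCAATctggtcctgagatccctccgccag
Soat1 (chr1:156474329-156474578, minus strand): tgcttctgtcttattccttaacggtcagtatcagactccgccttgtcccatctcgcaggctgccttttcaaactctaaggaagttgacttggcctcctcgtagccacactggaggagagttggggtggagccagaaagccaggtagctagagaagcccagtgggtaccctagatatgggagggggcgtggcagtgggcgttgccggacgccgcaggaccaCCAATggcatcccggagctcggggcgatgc
Lss (chr10:76531355-76531604, plus strand): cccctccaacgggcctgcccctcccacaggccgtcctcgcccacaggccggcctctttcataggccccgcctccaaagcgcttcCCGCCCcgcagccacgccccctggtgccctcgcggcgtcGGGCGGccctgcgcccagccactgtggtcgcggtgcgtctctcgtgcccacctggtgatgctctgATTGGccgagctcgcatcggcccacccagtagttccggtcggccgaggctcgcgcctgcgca
Idi1 (chr13:8885356-8885605, plus strand): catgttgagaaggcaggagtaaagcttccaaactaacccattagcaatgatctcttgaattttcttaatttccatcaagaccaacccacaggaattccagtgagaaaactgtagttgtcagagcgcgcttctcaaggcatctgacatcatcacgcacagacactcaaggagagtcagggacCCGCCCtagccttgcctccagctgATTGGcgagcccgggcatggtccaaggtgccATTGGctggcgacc
The sterol response element was found once, in Hmgcs1, 137 to 129 bases before the start. Of all 32851 promoters of this length, 1.05% held it. All 6 sequences held a CCAAT box within 62 bases of the start, and 5 of them a GC box, with 0 overlaps between matches. RefSeq has 28 promoter entries for 22 of the 28 genes. Of these 28 promoters, 19 had a CCAAT box, compared with 33.85% of all promoters, and 21 had a GC box, compared with 32.74%. A match describes the letters in this window and not binding.

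The 2 tissues of the continuous experiment differed in every one of the 28 genes when vehicle livers were compared with vehicle hippocampi. In liver, 24 genes were higher and 4 lower, and the median difference was 2.76 on the log2 scale, against a median of -0.20 over all 16205 genes tested. The differences of all genes spread widely, with an SD of 4.56. Since 92.8% of all genes passed this test, 42.4% higher and 50.4% lower in liver, the number of calls says little about these genes, and the sizes and directions are described instead. Here libraries of both tissues were scaled together, so that CPM values differ from those given within 1 tissue further on. In bulk tissue, fewer cells of a type and less RNA per cell cannot be told apart.

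Among the enzymes, Ebp, the sterol isomerase, differed most. It was at 11.1 to 13.6 CPM (median 11.6) in the 8 vehicle hippocampi and at 338 to 523 CPM (median 415) in the 10 vehicle livers, a difference of 5.097 ± 0.08 (adjusted p = 1.63e-35), or 34.2-fold. Tm7sf2, a sterol C14 reductase, was at 10.5 to 13.4 CPM (median 12.3) in hippocampus and 216 to 339 CPM (median 273) in liver. Sc5d, the lathosterol oxidase near the end of the pathway, was at 47.8 to 53.9 CPM (median 51.3) and 472 to 1553 CPM (median 1243). Tissue ranges of these enzymes lay far apart, and the log2 differences of Tm7sf2 and Sc5d were 4.49 ± 0.11 (adjusted p = 3.1e-30) and 4.44 ± 0.20 (adjusted p = 1.93e-21). Nsdhl, which removes the C4 carboxyl group of sterols, was at 14.3 to 17.6 CPM (median 16.2) and 109 to 239 CPM (median 171). Hsd17b7, which completes the same C4 demethylation, was at 13.2 to 16.1 CPM (median 14.8) and 73.6 to 138 CPM (median 112). Their log2 differences were 3.43 ± 0.19 (adjusted p = 1.08e-18) and 2.898 ± 0.15 (adjusted p = 1.04e-19). Farnesyl diphosphate synthase, Fdps, had a difference of 4.83, but 26.7% of its annotated exon bases are shared with Gm43738 on the same strand, and its hippocampal level of about 0.65 CPM is therefore uncertain. Tm7sf2 likewise shares 12.1% of its exon bases with Vps51.

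The 4 genes that were lower in liver sit apart from the sterol steps. Abcg1, which exports cholesterol to HDL, was at 57.3 to 67.1 CPM (median 62.2) in hippocampus and 6.36 to 11.2 CPM (median 8.78) in liver. Soat1, which esterifies cholesterol for storage, was at 20.4 to 23.8 CPM (median 21.98) and 2.71 to 5.02 CPM (median 3.62). Ggps1, which makes geranylgeranyl diphosphate on a branch that leaves the sterol pathway, was at 31.4 to 35.7 CPM (median 33.3) and 8.15 to 12.1 CPM (median 10.3). Again no hippocampus overlapped with a liver, and the log2 differences were -2.82 ± 0.07 (adjusted p = 7.23e-29), -2.56 ± 0.08 (adjusted p = 2.09e-26) and -1.72 ± 0.06 (adjusted p = 1.21e-24). For Srebf2, the gene of SREBP2, the difference was -0.82 ± 0.11 (adjusted p = 1.2e-08), but it became 1.26 when the dependence of counts on GC content and length was removed from each library, so that its direction depends on the processing. The same step reduced the differences of Abcg1 and Soat1 to -1.62 and -1.49.

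The other transporters and regulators were higher in liver. Stard4, a cytosolic sterol carrier, was at 17.4 to 26.4 CPM (median 21.1) in hippocampus and 202 to 346 CPM (median 236) in liver. Npc1, which moves cholesterol out of lysosomes, was at 48.1 to 70.6 CPM (median 57.5) and 160.4 to 314 CPM (median 216). Abca1, which exports cholesterol to lipid-poor apolipoprotein, was at 25.1 to 31.7 CPM (median 27.2) and 194 to 337 CPM (median 267). Of the pair of LXR-regulated exporters, Abca1 was thus the higher in liver, by 3.23 ± 0.10 (adjusted p = 1.62e-26), and Abcg1 the lower. The differences of Stard4 and Npc1 were 3.59 ± 0.11 (adjusted p = 4.25e-27) and 1.96 ± 0.10 (adjusted p = 1.16e-19). Scap was at 76.4 to 88.2 CPM (median 81.4) and 199.7 to 335 CPM (median 267), with a difference of 1.72 ± 0.07 (adjusted p = 8.31e-24). Removing the dependence on GC content and length enlarged the differences of Scap to 4.09, Npc1 to 3.38, Lss to 4.42 and Sqle to 2.56, so that their sizes depend on the processing.

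Per length of transcript, the order of the genes also differed between tissues. In hippocampus, Hmgcs1, which makes HMG-CoA early in the pathway, was highest with 45.8 ± 3.87 CPM per kb (SD, n = 8), before Srebf2 with 35.5 ± 2.64 and Msmo1, the C4 methyl sterol oxidase, with 28.9 ± 3.32 CPM per kb. In liver, Insig1 had 275 ± 146 CPM per kb (SD, n = 10), Sc5d 234 ± 74.5, Ebp 233 ± 30.7, Tm7sf2 183 ± 26.7, Hmgcs1 164 ± 88.1 and Insig2 162 ± 91.7 CPM per kb. The ranges of 1 SD around the mean did not overlap between the 3 hippocampal genes, and overlapped between neighbours in the order of the 6 liver genes.

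**Figure D1:**
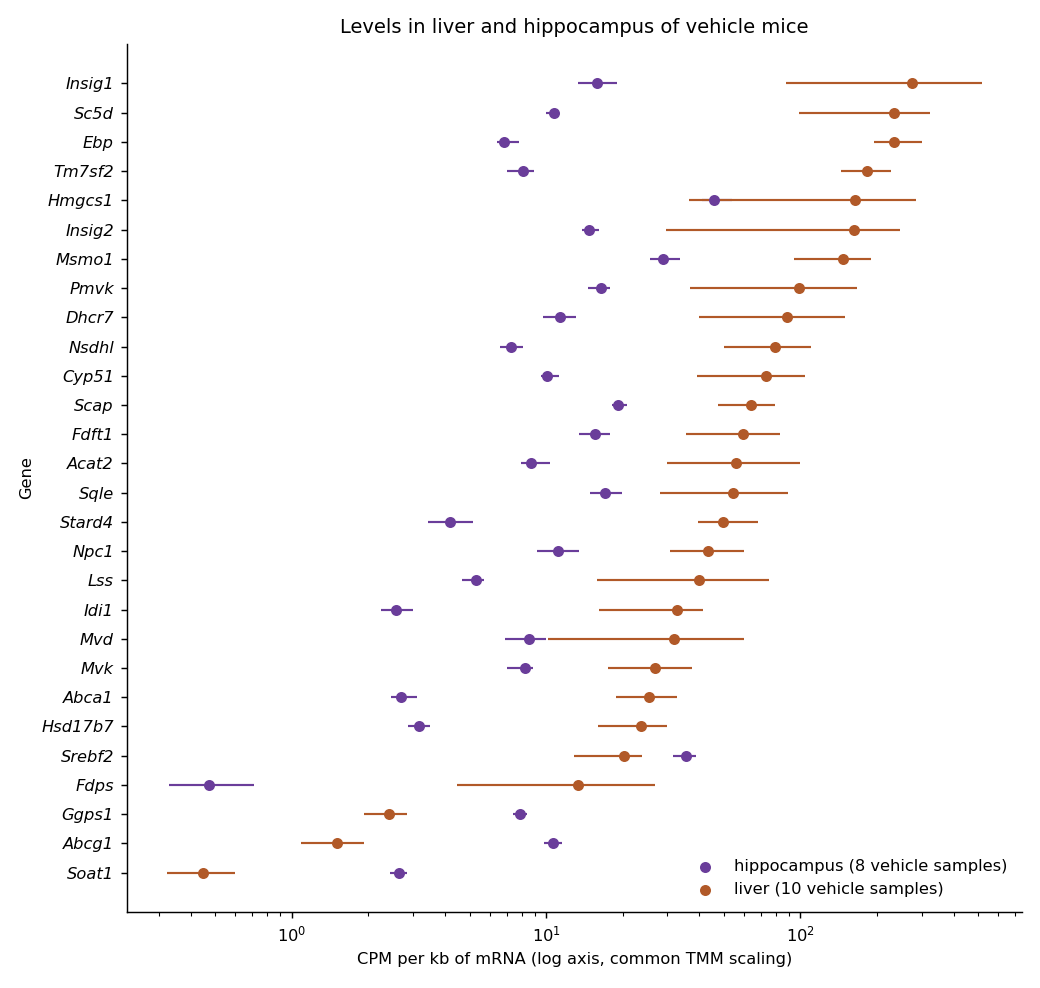
Level of the 28 genes in vehicle mice of the continuous experiment, in CPM per kb of transcript on a log axis, with the mean as a point and the lowest to highest sample as a line, for 8 hippocampi and 10 livers. Abcg1, Soat1, Ggps1 and Srebf2 lie lower in liver, and the other 24 genes lie higher, with wide ranges for Insig1, Insig2 and Hmgcs1.

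Continuous CORT lowered genes of cholesterol synthesis in the hippocampus of both genotypes. In WT mice 6 of the 28 genes fell and 0 rose, where 2.92% of all 14949 genes tested passed in either direction and 2.11% fell. In AS mice 13 fell and 0 rose, where 3.77% of all genes passed and 1.75% fell. Over the 28 genes the median change was -0.14 in WT and -0.27 in AS mice, against 0.0034 and -0.0027 over all genes tested. All 6 genes called in WT mice were among the 13 called in AS mice. Every CORT mouse lay below every vehicle mouse in 7 of the 28 genes in WT mice, as in 3.55% of all genes. In AS mice this held for 14 of the 28, as in 3.39% of all genes. The 19 calls were all among these, but calls and separation rest on the same values. By role, 2 of 8 mevalonate enzymes and 4 of 11 sterol enzymes fell in WT mice. In AS mice these were 3 and 8, with 1 of 4 regulators and 1 of 5 genes of transport, efflux and storage. In a fit of both tissues that averaged the genotypes and shared 1 estimate of the spread, 1 of the 28 genes fell in hippocampus, Tm7sf2 by 0.37 ± 0.096 (adjusted p = 0.0132), where 5.91% of all genes passed and 4.06% fell, and the other 27 did not pass.

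The mevalonate steps fell at Hmgcs1 and at Idi1, the isomerase that yields both isoprenoid building blocks. Hmgcs1 was at 218, 201, 215 and 207 CPM in WT vehicle mice and at 142, 182, 136, 159 and 144 CPM in WT CORT mice. In AS mice it was at 255, 231, 223 and 231 CPM with vehicle and at 129, 180.3, 179, 146 and 151 CPM with CORT. The groups did not overlap in either genotype, and on the log2 scale Hmgcs1 fell by 0.46 ± 0.09 (adjusted p = 0.00721) in WT and fell by 0.58 ± 0.09 (adjusted p = 0.000688) in AS mice. Idi1 had 10.6, 10.1, 11.4 and 10.2 CPM in WT vehicle and 7.37, 9.13, 7.15, 7.81 and 6.26 CPM in WT CORT mice. With AS mice, the vehicle values were 12.4, 12.3, 9.57 and 10.95 CPM and the CORT values 6.06, 7.94, 9.39, 7.12 and 7.605 CPM. Although the AS groups lay close, at 9.57 and 9.39 CPM for their nearest mice, all CORT mice were lower, and Idi1 fell by 0.49 ± 0.12 (adjusted p = 0.03) in WT and fell by 0.57 ± 0.12 (adjusted p = 0.00823) in AS mice. Mvd, the mevalonate diphosphate decarboxylase, passed in AS mice, with 22.5, 22.8, 20.8 and 24.7 CPM in vehicle and 9.82, 16.5, 17.7, 12.4 and 14.4 CPM in CORT mice. It fell by 0.68 ± 0.13 (adjusted p = 0.00389), and its change in WT mice, where the groups overlapped, was -0.39 ± 0.13 (adjusted p = 0.12).

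Among the sterol enzymes, Lss closes the rings of lanosterol and Cyp51 removes its C14 methyl group. Lss was at 35.1, 37.5, 30.99 and 31.4 CPM in WT vehicle and 27.5, 26.5, 28.8, 28.4 and 26.1 CPM in WT CORT mice. In AS mice it was at 35.6, 36.8, 35.3 and 34.2 CPM and 30.9, 29.8, 29.9, 29.2 and 28.7 CPM. No CORT mouse reached the lowest vehicle mouse in either genotype, and Lss fell by 0.30 ± 0.06 (adjusted p = 0.00437) in WT and fell by 0.26 ± 0.06 (adjusted p = 0.0102) in AS mice. The AS call of Lss was lost at a threshold of 0.01 and when all 20 hippocampi were kept (adjusted p = 0.145). Cyp51 was at 52.01, 58.3, 53.5 and 52.8 CPM in WT vehicle and 42.95, 46.9, 39.4, 42.7 and 40.5 CPM in WT CORT mice. The AS vehicle mice had 60.6, 60.2, 52.7 and 56.2 CPM and the AS CORT mice 44.3, 47.7, 46.5, 40.8 and 47.4 CPM. Here too the groups did not overlap, and Cyp51 fell by 0.35 ± 0.06 (adjusted p = 0.00263) in WT and fell by 0.34 ± 0.06 (adjusted p = 0.00229) in AS mice.

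Further along, Tm7sf2 was at 17.4, 18.98, 16.2 and 18.4 CPM in WT vehicle and 12.8, 14.4, 14.99, 13.04 and 12.9 CPM in WT CORT mice. Its AS values were 16.1, 17.5, 17.2 and 14.9 CPM with vehicle and 10.5, 11.5, 13.7, 14.3 and 14.6 CPM with CORT. This gene fell by 0.38 ± 0.09 (adjusted p = 0.0275) in WT and fell by 0.34 ± 0.09 (adjusted p = 0.0415) in AS mice, again without overlap. Sc5d was at 70.4, 71.2, 67.9 and 71.2 CPM in WT vehicle and 58.4, 66.3, 62.998, 63.3 and 62.2 CPM in WT CORT mice. With AS mice it was at 73.2, 72.9, 73.9 and 76.1 CPM and 57.04, 64.1, 64.2, 58.7 and 61.4 CPM. The change was the smallest of the 6 called in WT mice, where Sc5d fell by 0.16 ± 0.04 (adjusted p = 0.0484), and in AS mice it fell by 0.28 ± 0.04 (adjusted p = 0.000802). The WT call of Sc5d was lost in 21 of 25 alternatives, the threshold of 0.01 included, with an adjusted p of up to 0.198. That of Idi1 was lost in 8 (up to 0.0939) and that of Tm7sf2 in 7 in WT mice (up to 0.0926) and 12 in AS mice (up to 0.133).

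A further 4 sterol enzymes passed in AS and not in WT mice, although no gene passed the test of a difference between the genotypes. Msmo1 was at 94.1, 95.8, 81.2 and 91.5 CPM in AS vehicle and 51.7, 69.1, 74.1, 51.4 and 67.4 CPM in AS CORT mice. Sqle, the squalene epoxidase, was at 75.1, 65.4, 69.5 and 74.7 CPM and 45.2, 54.3, 64.3, 43.4 and 53.4 CPM. Dhcr7, which makes cholesterol from 7-dehydrocholesterol, was at 49.9, 49.7, 46.6 and 52.2 CPM and 30.5, 38.7, 45.1, 33.2 and 37.2 CPM. In all 3 the groups were separate, and the AS CORT mouse H10, at 74.1, 64.3 and 45.1 CPM, was nearest to the vehicle mice. Msmo1 fell by 0.53 ± 0.10 (adjusted p = 0.00334), Sqle fell by 0.45 ± 0.11 (adjusted p = 0.0244) and Dhcr7 fell by 0.43 ± 0.10 (adjusted p = 0.0185). Their WT changes were -0.34 ± 0.10 (adjusted p = 0.0737), -0.22 ± 0.11 (adjusted p = 0.343) and -0.17 ± 0.10 (adjusted p = 0.465). Hsd17b7 was at 20.3 to 22.6 CPM in AS vehicle and 17.2 to 20.3 CPM in AS CORT mice and fell by 0.22 ± 0.06 (adjusted p = 0.0497), against -0.04 in WT mice. This call was lost in 20 of 25 alternatives (adjusted p up to 0.298), that of Sqle in 6 (up to 0.168) and that of Dhcr7 in 4 (up to 0.0688).

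Of the regulators, Insig1, which holds SCAP in the endoplasmic reticulum and is itself a target of SREBP, was at 64.6, 72.2, 62.9 and 62.5 CPM in AS vehicle and 48.4, 50.8, 59.5, 46.3 and 50.3 CPM in AS CORT mice, and fell by 0.36 ± 0.08 (adjusted p = 0.0136). This call was lost at a threshold of 0.01 and without the AS vehicle mouse H11 (adjusted p = 0.0663). In WT mice its change was -0.30 ± 0.08 (adjusted p = 0.0536). Stard4 was at 31.9, 35.2, 37.2 and 33.8 CPM and 19.9, 25.5, 27.98, 23.7 and 24.3 CPM in the same AS groups and fell by 0.51 ± 0.10 (adjusted p = 0.00634), while the WT change was -0.05 ± 0.10 (adjusted p = 0.874). In WT mice Stard4 was at 24.3 to 26.8 CPM with vehicle and 20.4 to 30.7 CPM with CORT, so that both CORT groups overlapped with the WT vehicle mice and the AS vehicle mice were the highest of the 4 groups. Srebf2, Scap and Insig2 passed in neither genotype, with changes between -0.05 and 0.02 in WT and of -0.14, -0.06 and -0.08 in AS mice. Nor did the exporters Abca1 and Abcg1, whose changes were 0.13 and 0.08 in WT and 0.36 and 0.11 in AS mice.

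**Figure D2:**
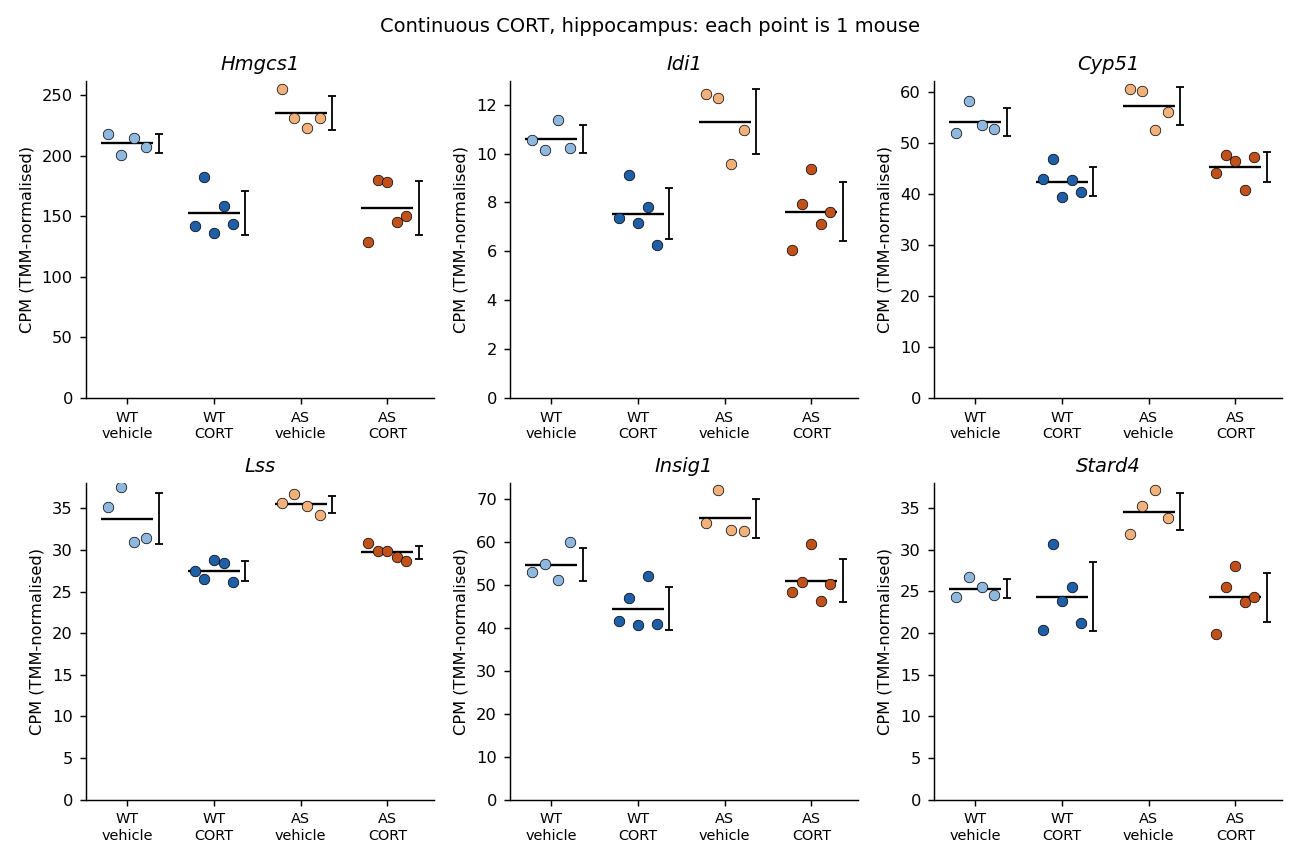
CPM of Hmgcs1, Idi1, Cyp51, Lss, Insig1 and Stard4 in each hippocampus of the continuous experiment, by group, with the mean as a line and the SD as a bar. For the first 4 genes every CORT mouse lies below every vehicle mouse in both genotypes; for Insig1 and Stard4 this holds in AS mice, at 46.3 to 59.5 against 62.5 to 72.2 CPM and 19.9 to 27.98 against 31.9 to 37.2 CPM.

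The difference between the genotypes in the CORT response was tested directly by the interaction. None of the 28 genes passed, with an adjusted p-value of 1 at the least, 3 genes at an unadjusted p below 0.05 and 0 genes by DESeq2, where 0% of all genes passed and 3.75% had an unadjusted p below 0.05. The interaction of Stard4 was -0.45 with a 95% interval of -0.76 to -0.15, that of Msmo1 -0.19 (-0.48 to 0.10) and that of Hmgcs1 -0.12 (-0.39 to 0.15). AS and WT mice with vehicle differed in 0 of the 28 genes by edgeR (0.0134% of all genes passed), with 7 at an unadjusted p below 0.05, as were 7.34% of all genes. By DESeq2 1 gene differed, and its share over all genes is not given here. All 7, namely Stard4, Srebf2, Insig1, Dhcr7, Msmo1, Fdft1 and Hsd17b7, were at higher levels in AS vehicle mice, the baseline of the AS comparison. In 9 of the 28 genes (Hmgcs1, Fdft1, Sqle, Msmo1, Sc5d, Dhcr7, Srebf2, Insig1 and Stard4) the 4 AS vehicle mice all lay above the 4 WT vehicle mice, as they did in 1.99% of all genes tested, and in 0 genes below them (2.02% of all genes). With CORT, 0 genes differed (0.0401%), with 2 at an unadjusted p below 0.05, against 10.2% of all genes, and 0 by DESeq2. Leaving out 1 mouse at a time gave between 3 and 9 calls in WT mice, with 3 without either of the WT vehicle mice H1 and H17 or of the WT CORT mice H3 and H20, and between 9 and 13 in AS mice.

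Summed markers of astrocytes were lower with CORT without overlap in both genotypes, and those of microglia in WT mice. The summed level of 5 astrocyte markers was 1349 to 1522 CPM in WT vehicle and 971 to 1145 CPM in WT CORT mice, and 1216 to 1325 and 989 to 1161 CPM in AS mice. Of these markers Aqp4, Gfap and Gja1 fell in both genotypes and Aldh1l1 and Slc1a3 passed in neither. The sum of 4 microglial markers was 232 to 260 and 194 to 224 CPM in WT mice. In AS mice it was 212 to 230 and 184 to 214 CPM, with overlap. The sums of the myelin, neuron and choroid plexus markers also overlapped between vehicle and CORT. The part of these shifts in the changes of the sterol genes was not tested. Hepatocyte markers, at 92350 to 141142 CPM in liver, summed to at most 116 CPM in hippocampus, in the WT vehicle mouse H1, and neuron markers, at 5455 to 6882 CPM in hippocampus, summed to at most 28.5 CPM in liver.

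In liver, continuous CORT lowered 15 of the 28 genes of AS mice but 2 of those of WT mice, and raised 0 in either genotype. Of all 12273 genes tested, 27.5% passed in AS mice, with 15% lower, and 18.6% in WT mice, with 9.9% lower. Over the 28 genes the median change was -0.78 for AS and 0.32 for WT mice, where 19 of the 28 values were positive, against medians of -0.0032 and -0.0047 over all genes tested. In AS mice 9 of 11 sterol enzymes, 2 of 8 mevalonate enzymes, 1 of 4 regulators and 3 of 5 genes of transport, efflux and storage fell. Both genes called in WT mice were also called in AS mice. With the genotypes averaged in the fit of both tissues, 7 genes fell, by between 0.20 and 1.004, and Insig2 rose, where 34.4% of all genes passed, 17.6% lower and 16.9% higher. The 7 were Abcg1, Soat1, Sc5d, Mvk, Scap, Tm7sf2 and Ebp. Of the 13 genes called in AS hippocampus and the 15 called in AS liver, 8 were shared. The number that unrelated calls would share was not computed, so this count does not show a common response of the tissues.

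Abcg1 and Soat1 fell in both genotypes. Abcg1 was at 7.65, 7.24, 4.67, 5.31 and 6.22 CPM in WT vehicle and 4.21, 2.72, 3.31, 3.53 and 2.86 CPM in WT CORT livers. In AS livers it was at 6.73, 6.02, 8.32, 6.78 and 5.91 CPM and 3.35, 3.26, 3.78, 3.69 and 3.37 CPM. The groups did not overlap in either genotype, and Abcg1 fell by 0.90 ± 0.15 (adjusted p = 0.000186) in WT and fell by 0.95 ± 0.14 (adjusted p = 5.67e-05) in AS mice. Soat1 was at 2.55, 2.72, 2.06, 1.997 and 2.94 CPM in WT vehicle and 1.63, 1.798, 1.502, 1.48 and 1.07 CPM in WT CORT livers. Its AS levels were 2.598, 2.51, 3.74, 3.44 and 3.01 CPM with vehicle and 1.62, 1.56, 1.32, 1.14 and 2.03 CPM with CORT. At these low levels the groups were still separate, and Soat1 fell by 0.71 ± 0.18 (adjusted p = 0.00785) in WT and fell by 0.99 ± 0.18 (adjusted p = 0.00028) in AS mice. Markers of Kupffer cells, the macrophages of the liver, moved with both genes. The sum of Clec4f, Cd5l and Vsig4, each of which fell in both genotypes, was 103 to 137 CPM in WT vehicle and 49.3 to 74.1 CPM in WT CORT livers, and 133 to 189 and 52.0 to 75.9 CPM in AS livers. Their part in the fall of Abcg1 and Soat1 was not tested.

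Another 3 genes had separate groups in AS livers. With Abcg1 and Soat1 these make 5 of the 28 genes, where all AS CORT livers lay below all AS vehicle livers in 9.11% of all genes, and in WT livers the 2 genes compare with 7.08%. Tm7sf2 was at 198, 254, 185, 234 and 215 CPM in AS vehicle and 96.8, 129.8, 175, 111 and 103 CPM in AS CORT livers. Sc5d was at 642, 1161, 716, 1071 and 986 CPM and 212, 254, 568, 329 and 218 CPM. Scap was at 196, 251, 235, 205 and 239 CPM and 131, 140.0, 188, 161 and 142 CPM. In each of the 3, the third CORT value belongs to L10 and is the highest. Tm7sf2 fell by 0.82 ± 0.14 (adjusted p = 0.000211), Sc5d fell by 1.53 ± 0.30 (adjusted p = 0.000726) and Scap fell by 0.56 ± 0.11 (adjusted p = 0.000474). In WT livers their changes were 0.36 ± 0.14 (adjusted p = 0.0823), -0.50 ± 0.30 (adjusted p = 0.265) and -0.02 ± 0.11 (adjusted p = 0.932), with overlapping groups.

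For the other enzymes called in AS livers, L10 lay within the range of the vehicle mice. Idi1 was at 51.9, 89.7, 67.3, 93.4 and 85.4 CPM with vehicle and 11.5, 33.1, 73.97, 19.9 and 18.2 CPM with CORT. Lss was at 86.8, 262, 101, 198 and 166 CPM and 41.7, 63.2, 149.8, 51.5 and 45.1 CPM. The 4 CORT livers other than L10 were below all vehicle livers in both genes, and Idi1 fell by 1.31 ± 0.39 (adjusted p = 0.017) and Lss fell by 1.21 ± 0.39 (adjusted p = 0.0243). Msmo1 was at 203, 275, 170.3, 288 and 198 CPM and 54.8, 106, 216, 84.8 and 98.4 CPM. Nsdhl was at 105, 179, 117, 161 and 136 CPM and 38.4, 87.7, 136, 51.95 and 43.4 CPM. The same 4 livers were lowest here, and Msmo1 fell by 1.02 ± 0.28 (adjusted p = 0.0106) and Nsdhl fell by 0.96 ± 0.29 (adjusted p = 0.0165). Mvk, the mevalonate kinase, was at 25.98, 39.9, 28.9, 40.02 and 30.2 CPM and 12.7, 21.8, 27.8, 16.7 and 17.2 CPM. Fdft1, the squalene synthase, was at 137, 229.7, 129.5, 207 and 161 CPM and 75.7, 97.4, 179.8, 74.3 and 81.1 CPM. Mvk fell by 0.78 ± 0.21 (adjusted p = 0.00935) and Fdft1 fell by 0.77 ± 0.26 (adjusted p = 0.0316), and L10 was again the highest CORT liver in both. Ebp was at 279.7, 390.4, 321, 317 and 314 CPM and 230.3, 213, 289, 225 and 249 CPM, with L10 above the lowest vehicle liver, and fell by 0.43 ± 0.10 (adjusted p = 0.00286). The last 3 calls were Cyp51 at 159.7 to 307 and 52.9 to 253 CPM, Dhcr7 at 129 to 315 and 62.7 to 229 CPM and Stard4 at 150.2 to 255 and 109 to 170.5 CPM, with adjusted p-values of 0.0344, 0.0454 and 0.0411, which fell by 0.99, 0.89 and 0.40. Of 26 alternatives, the call was lost in 14 for Dhcr7 (adjusted p up to 0.123), 12 for Stard4 (up to 0.131), 9 for Cyp51 (up to 0.0865) and 7 each for Fdft1 and Lss (up to 0.0847 and 0.0759). Without L2 the change of Stard4 was -0.25, and without L10 that of Cyp51 was -1.49. For the 6 enzymes from Idi1 to Fdft1, the changes in WT livers were between 0.07 and 0.37 and none passed. The summed level of hepatocyte markers was 92350 to 126800 CPM in AS vehicle and 117170 to 141142 CPM in AS CORT livers, and 94974 to 106867 CPM and 99218 to 115936 CPM in the WT groups, with overlap in both genotypes. Its part in these changes was not tested.

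Among the genes that passed in neither genotype, Hmgcs1, Mvd, Fdps, Sqle and Insig2 had standard errors of 0.39 to 0.53. Hmgcs1 was at 127, 92.3, 580.5, 515 and 495 CPM in WT vehicle, 275, 463, 407, 586 and 854 CPM in WT CORT, 177, 738, 313, 643 and 516 CPM in AS vehicle and 81.1, 151, 486, 151 and 153 CPM in AS CORT livers. All groups overlapped, and its changes were 0.52 ± 0.52 (adjusted p = 0.557) in WT and -1.22 ± 0.53 (adjusted p = 0.0922) in AS mice. Fdps and Sqle had WT changes of 1.09 ± 0.42 (adjusted p = 0.077) and 1.005 ± 0.39 (adjusted p = 0.0782). For Sqle every WT CORT liver, at 158 to 266 CPM, lay above every WT vehicle liver, at 56.7 to 153 CPM, as in 7.03% of all genes. Insig2, of which the liver has a transcript that insulin lowers, had a change of 1.11 ± 0.53 (adjusted p = 0.162) in WT and 0.56 ± 0.53 (adjusted p = 0.465) in AS mice. In the fit of both tissues that averages the genotypes it rose by 0.86 ± 0.28 (adjusted p = 0.0171), a value that includes the 3 vehicle livers with low Insig2 described further on. Srebf2, Npc1, Abca1 and Ggps1 had smaller changes, between -0.24 and 0.42 in WT mice and between -0.10 and 0.03 in AS mice, and those of Insig1 were -0.17 and -0.78.

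**Figure D3:**
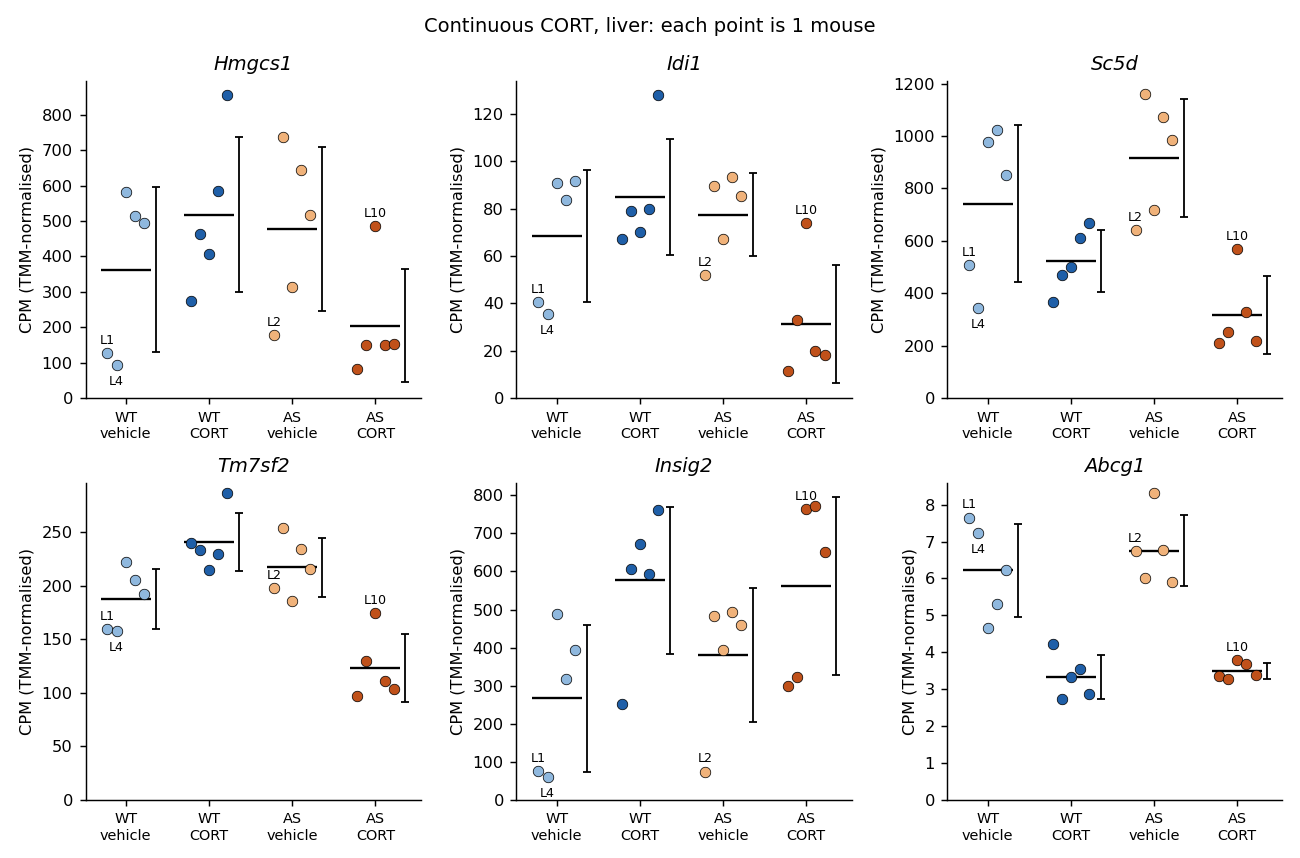
CPM of Hmgcs1, Idi1, Sc5d, Tm7sf2, Insig2 and Abcg1 in each liver of the continuous experiment, by group, with the mean as a line and the SD as a bar, and with the livers L1, L2, L4 and L10 named. Abcg1 is lower with CORT in both genotypes, Tm7sf2 and Sc5d are lower in all AS CORT livers than in AS vehicle livers, and Insig2 is at 58.6 to 74.7 CPM in L1, L2 and L4 only.

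Whether the liver response differed between genotypes was tested by the interaction. It was negative for 25 of the 28 genes, with a median of -1.03, and 19 genes had a 95% interval below 0 and an unadjusted p below 0.05, which 8.11% of all genes had in either direction. None passed after adjustment by edgeR, where 0% of all genes did, the smallest adjusted p being 0.103 for Tm7sf2 with an interaction of -1.18 ± 0.20. DESeq2 called 1 gene. The shares of all genes given here come from edgeR, and those for the calls of DESeq2 are not given. The interval of the interaction was -2.98 to -0.69 for Sqle, -2.503 to -0.51 for Cyp51 and -0.48 to 0.38 for Abcg1. Between CORT livers, Tm7sf2 was at 239.8, 233, 215, 229 and 286 CPM in WT and 96.8, 129.8, 175, 111 and 103 CPM in AS mice, the only 1 of the 28 genes to differ by edgeR (0.277% of all genes passed, 0.171% lower). At an unadjusted p below 0.05 there were 16, all lower in AS livers, against 8.29% of all genes in either direction, and DESeq2 called 5, all lower. In Mvk, Fdps, Sqle, Tm7sf2, Msmo1 and Stard4 every AS CORT liver lay below every WT CORT liver, as in 1.15% of all genes. Tm7sf2 was lower by 0.97 ± 0.14 (adjusted p = 0.00352). In vehicle livers 0 of the 28 genes differed between the genotypes by edgeR (0.0163%) and by DESeq2, with 2 at an unadjusted p below 0.05 (10.3% of all genes). Without L10 there were 20 calls for CORT in AS mice, where 29.3% of all genes passed in that fit, 10 between the genotypes with CORT (0.505%), 1 for the interaction (0.00815%) and 4 for CORT in WT mice (18.9%). Leaving out any other liver gave 10 to 17 calls in AS mice.

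The livers of a group also differed among themselves in these enzymes, more than in the median gene. For the 19 enzymes, the median coefficient of variation (CV) between livers was 37.3% in WT vehicle, 22.3% in WT CORT, 25.4% in AS vehicle and 54.7% in AS CORT mice, whereas the median over all genes tested was 10.6% to 13.8%. In hippocampus the enzyme medians were 5.80% and 7.01% with vehicle and 11.2% and 13.9% with CORT, against 8.24% to 8.77% over all genes. The same livers were high or low in most of the enzymes. The summed enzyme level was 461, 565, 607 and 663 CPM per kb in 4 AS CORT livers and 1257 CPM per kb in L10, which was the highest of its group in 17 of the 19 enzymes, while L7 was the lowest in 16. It was 1082 to 1778 CPM per kb in WT CORT livers, where L20 was highest in 18 enzymes, and 959 to 1772 CPM per kb in AS vehicle livers.

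Among the WT vehicle livers, L1 and L4 had 752 and 669 CPM per kb and L6, L13 and L17 had 1483, 1333 and 1242 CPM per kb. With the AS vehicle liver L2 they stood apart in Insig2, at 74.7, 58.6 and 74.2 CPM for L1, L4 and L2 against 317 to 493 CPM in the other 7 vehicle livers. In the same 3 livers Stard4 was high, at 218, 222 and 255 CPM against 150.2 to 177 CPM, as was Npc1 at 229.8, 188 and 209.9 CPM against 119.8 to 168 CPM. The hippocampi with the same 3 numbers lay within the range of the other vehicle mice for Insig2, at 53.5, 53.7 and 56.4 CPM. These livers were picked out after their values were seen. Fits that left out L1, L2 and L4, or L1 to L4 with L10, were made too, and their values are not reported because such livers are selected by the levels under test.

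**Figure D4:**
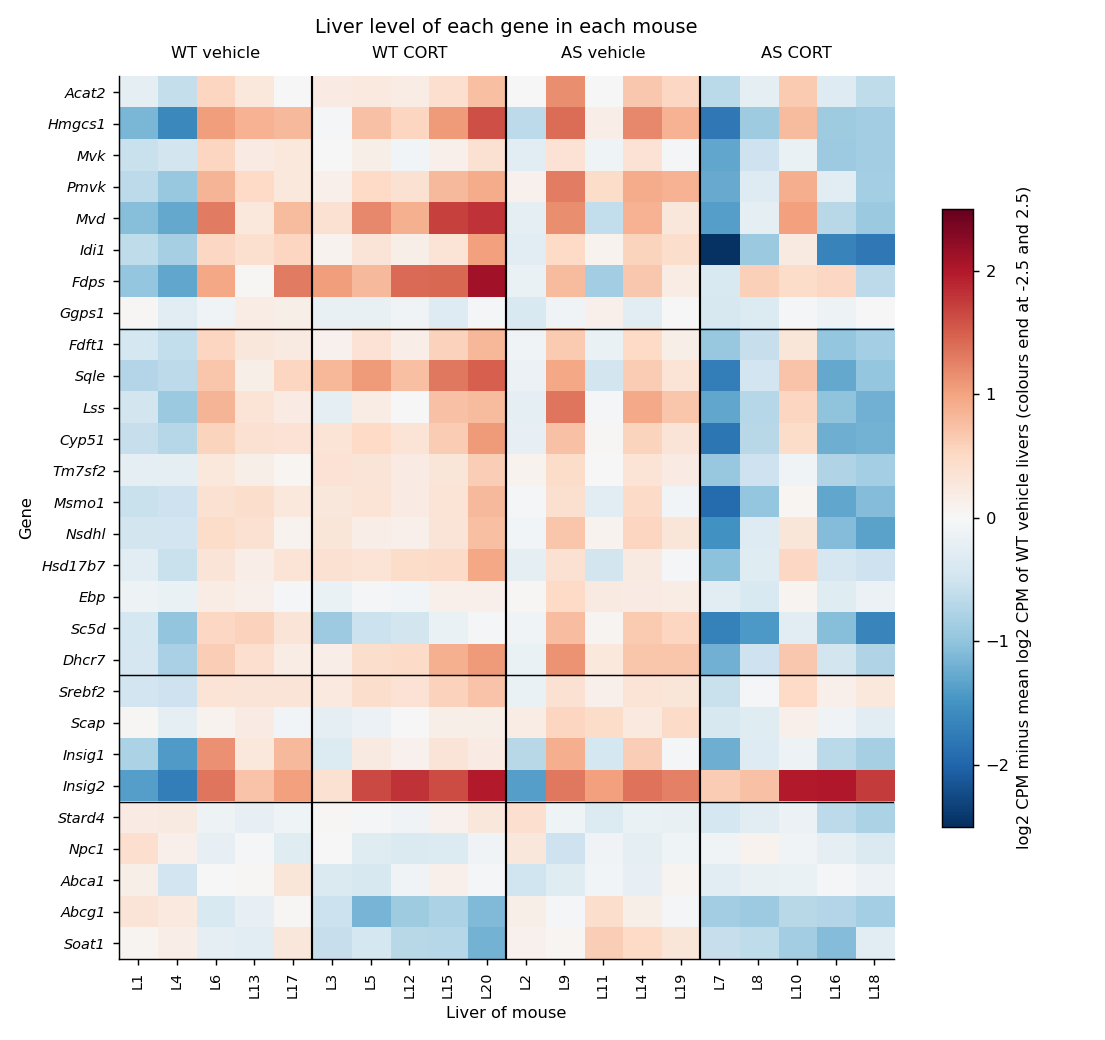
Heat map of the 28 genes in each of the 20 livers, grouped by genotype and treatment, in log2 CPM minus the mean log2 CPM of the WT vehicle livers. The enzymes are low in L1 and L4 and in 4 of the 5 AS CORT livers, with L10 as the exception, and Abcg1 and Soat1 are low in all CORT livers.

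Taken over both genotypes, the CORT change in liver and in hippocampus was compared in 1 fit of both tissues. It was lower in liver for 3 of the 28 genes and higher for 0, where 19.6% of all 16205 genes passed and 8.9% were lower. These were Abcg1 with a difference of -0.995 ± 0.11 (adjusted p = 1e-08), Soat1 with -0.81 ± 0.12 (adjusted p = 5.09e-06) and Sc5d with -0.77 ± 0.23 (adjusted p = 0.0161), the per-mouse values of which are given above. For the other enzymes the difference had wide intervals, such as -0.64 to 1.03 for Hmgcs1, -0.60 to 0.71 for Idi1 and -0.41 to 0.67 for Cyp51, so that unlike responses of the tissues cannot be told from like ones. Without the samples numbered 4, 5 genes passed. The share of all genes that passed in that fit is not given here, so this count is no result about these genes alone.

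**Figure D5:**
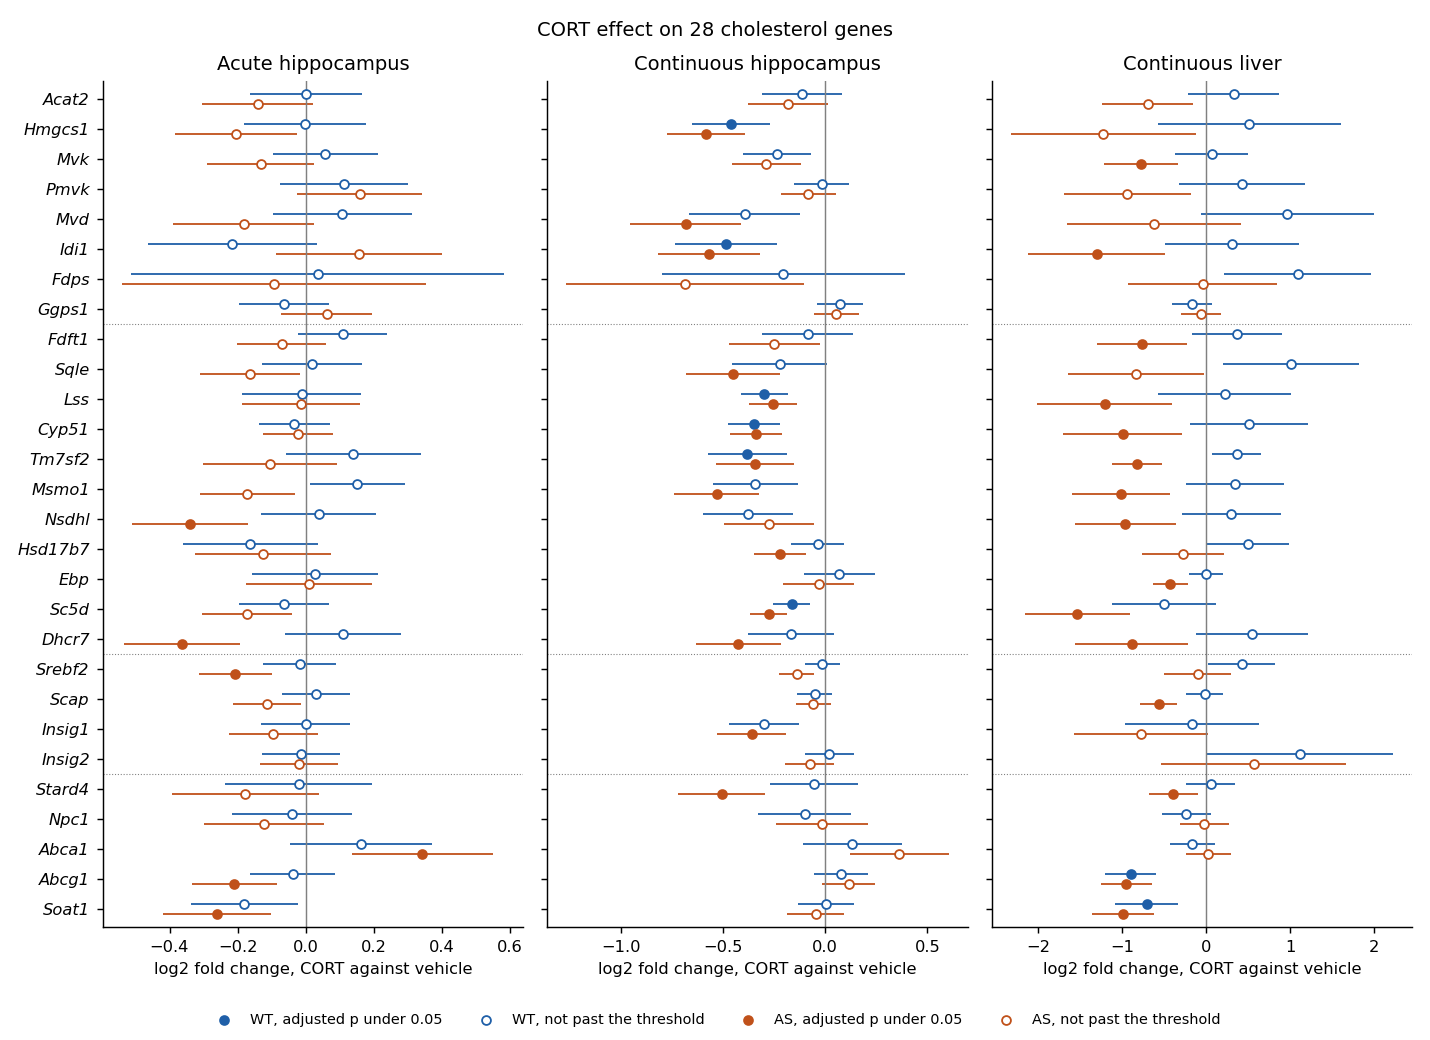
Log2 change with CORT of the 28 genes in WT and AS mice, with 95% intervals, in 3 panels with x scales of their own for the acute hippocampus, the continuous hippocampus and the continuous liver; filled points passed at an adjusted p below 0.05. The points of the continuous hippocampus lie to the left of 0 for most enzymes in both genotypes, and those of the liver lie to the left in AS mice and on either side in WT mice.

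The acute experiment asked what a single injection changed within 3 h. In WT mice 0 of the 28 genes passed by edgeR or DESeq2, where 1.48% of all 14611 genes did, and 2 genes had an unadjusted p below 0.05, against 10.7% of all genes. These were Msmo1 with a change of 0.15 ± 0.07 (adjusted p = 0.412) and Soat1 with -0.18 ± 0.08 (adjusted p = 0.367). In AS mice 1 gene rose and 5 fell, where 17.9% of all genes passed, 8.25% higher and 9.62% lower, and the median was -0.12. The 6 genes are 21.4% of the 28, near that background.

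Abca1 was the gene that rose. It was at 37.1 to 48.9 CPM (median 42.5) in AS vehicle and at 50.5 to 57.4 CPM (median 53.9) in AS CORT mice, without overlap (all AS CORT mice were higher in 3% of all genes), and rose by 0.34 ± 0.10 (adjusted p = 0.0208). Dhcr7 was at 31.6 to 43.5 CPM (median 37.3) and 26.4 to 33.1 CPM (median 29.5). Nsdhl was at 20.1 to 25.02 CPM (median 22.4) and 15.3 to 20.5 CPM (median 18.1). Groups overlapped for both, and Dhcr7 fell by 0.36 ± 0.08 (adjusted p = 0.00439) and Nsdhl fell by 0.34 ± 0.08 (adjusted p = 0.00702). Srebf2 was at 262 to 324 CPM (median 307) and 243 to 272 CPM (median 260.1). Abcg1 was at 69.3 to 95.7 CPM (median 90.6) and 69.2 to 81.2 CPM (median 74.1). Soat1 was at 17.1 to 23.6 CPM (median 20.7) and 14.7 to 19.1 CPM (median 17.7). In these 3 genes as well the groups overlapped, while Srebf2 fell by 0.21 ± 0.05 (adjusted p = 0.00918), Abcg1 fell by 0.21 ± 0.06 (adjusted p = 0.0199) and Soat1 fell by 0.26 ± 0.08 (adjusted p = 0.0212). With GC and length trends removed the change of Srebf2 was -0.080. Of the 6 genes, Dhcr7 was also called in the AS hippocampus of the continuous experiment.

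Between AS and WT mice with CORT, 6 of 27 genes differed with Fdps set aside, where 24.9% of all genes did, 11.7% higher and 13.2% lower in AS mice. Idi1 was higher in AS mice, by 0.36 ± 0.12 (adjusted p = 0.0298). It was at 3.71 to 6.65 CPM (median 6.29) in WT CORT and 6.26 to 8.47 CPM (median 7.27) in AS CORT mice. Fdps was at 0.29 to 1.03 CPM (median 0.45) and 0.67 to 1.18 CPM (median 0.91), with overlapping groups, and because it entered the test only through the higher AS mice, its comparison with WT mice is no evidence of a difference. Mvk, Msmo1, Nsdhl, Dhcr7 and Abcg1 were lower in AS mice, with log2 differences of -0.31, -0.23, -0.30, -0.33 and -0.21. With GC and length trends removed the difference of Mvk was -0.18. In WT CORT mice these 5 genes were at 17.3 to 21.9 CPM (median 19.4), 58.6 to 72.8 CPM (median 66.5), 19.997 to 24.8 CPM (median 21.7), 32.3 to 40.7 CPM (median 37.1) and 82.6 to 92.3 CPM (median 86.01). In AS CORT mice Mvk was at 14.7 to 17.6 CPM (median 15.4) and Msmo1 at 52.1 to 61.9 CPM (median 56.8), and the values of the other 3 are given above. Of the 6 genes, the groups were separate for Abcg1 alone, where 6.3% of all genes had every AS mouse below every WT mouse, and its difference became 0.085 with the division of the libraries described next as a covariate. With vehicle, 0 genes differed between the genotypes by edgeR or DESeq2 (0.157% of all genes passed), with 3 at an unadjusted p below 0.05, Fdps among them, against 9.54% of all genes. The interaction passed for 1 gene, Dhcr7, with -0.47 ± 0.12 (adjusted p = 0.0318), where 4.49% of all genes passed and 3.06% were negative. This call was lost without any 1 of the WT mice H2, H3, H5, H10, H11 and H12 or of the AS mice H14, H15, H16, H23 and H24, and the count was 2 to 5 without H8, H9, H17, H18 or H20.

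These acute AS results coincide with a division of the libraries. By the number of reads that counting set aside for low alignment quality, 8 libraries with 2640 to 2850 such reads stood apart from 16 with 1877 to 2237. The 8 were all 6 AS CORT mice and the AS vehicle mice H17 and H18, and the 16 were all 12 WT mice and the other 4 AS vehicle mice. With this division as a covariate, 0 of the 28 genes passed for CORT in AS mice, between the genotypes with CORT or for the interaction. The CORT change in AS mice then was 0.39 for Abca1, no smaller than without it, and -0.20 for Nsdhl, -0.17 for Dhcr7, -0.12 for Soat1, -0.056 for Srebf2 and -0.0067 for Abcg1, each nearer to 0. Between the genotypes with CORT, Mvk was at -0.37, Nsdhl at -0.097, Dhcr7 at -0.046, Msmo1 at -0.0094, Idi1 at 0.083 and Abcg1 at 0.085, and the interaction of Dhcr7 was -0.28. Of 6 myelin markers, Mbp and Mag fell in AS CORT mice, and the sum of the 6 was 1688 to 3334 CPM there against 2484 to 4827 CPM in AS vehicle mice. Its part in these changes was not tested. CORT and the division cannot be told apart in AS mice except through H17 and H18.

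The wider sterol pathway was followed in 24 further genes of SREBP processing, LXR, uptake, transport, bile acids and esters. In continuous hippocampus 1 of 19 tested fell in WT mice, where 2.92% of all genes passed, namely Npc2, a lysosomal cholesterol carrier (-0.26), and 0 passed in AS mice, where 3.77% of all genes did. In liver 2 of 22 rose and 4 fell in WT mice, against 18.6% of all genes that passed. Lcat, which esterifies cholesterol on HDL, rose by 0.34 and Mylip, a ligase that degrades lipoprotein receptors, by 0.45, whereas the lipoprotein receptor Vldlr (-1.58), the hepatic esterification enzyme Soat2 (-0.59) and the biliary exporters Abcg5 (-0.66) and Abcg8 (-0.91) fell. In AS livers Lcat (0.46), Mylip (0.45) and the HDL receptor gene Scarb1 (0.44) rose and Soat2 (-0.40) and Npc2 (-0.22) fell, 5 of 22 where 27.5% of all genes passed. In the acute experiment 1 of 19 fell in WT mice, Vldlr (-0.25), where 1.48% of all genes passed, and 5 fell in AS mice, where 17.9% did, the 4 with the smallest p being Srebf1 (-0.36), Stard3 (-0.35), Nr1h2 (-0.34) and Lipa (-0.28).

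Across all comparisons, 22 of the 28 genes passed the test for CORT in at least 1 tissue, experiment and genotype, where 44.2% of the 10848 genes tested in all 3 data sets did. The other 6, of which Insig2 passed in liver once the genotypes were averaged, were Acat2, the thiolase that opens the pathway, Pmvk, the phosphomevalonate kinase, Fdps, Ggps1, Insig2 and Npc1. Acat2 was at 24.6 to 26.5 CPM in WT vehicle hippocampi and 49.3 to 107 CPM in WT vehicle livers, and Pmvk at 24.6 to 28.3 and 32.2 to 111 CPM. In AS livers with CORT both came close to the threshold, Acat2 with -0.70 ± 0.26 (adjusted p = 0.0516) and Pmvk with -0.94 ± 0.36 (adjusted p = 0.0594). The changes of Ggps1 were between -0.17 and 0.07, and those of Npc1 between -0.24 and -0.01, over the 6 comparisons of CORT with vehicle.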

How the data were processed

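RNA-seq libraries of the hippocampus (acute and continuous experiments) and of the liver (continuous experiment) were grouped by the genotype, treatment and tissue in their labels. The authors made stranded mRNA libraries, sequenced them as 100 bp read pairs, ran STAR against mm10 and HTSeq-count in the BioWDL pipeline, and deposited raw counts per gene, with no normalization and no pooling of replicates. The annotation release and the strand setting of counting are not given in the sources used here, so that genes sharing exon bases with a gene on the other strand (Hmgcs1, Idi1, Ggps1, Fdft1, Lss, Cyp51, Scap and Npc1) are uncertain too. Reads on no gene, 11.7% to 23.3% of a library, stayed out of library sizes and tests.

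Symbols, positions, transcript lengths and GC content came from GENCODE release M21 on GRCm38. The 28 genes and the lists of other sterol genes and cell markers were chosen with earlier results of these data known. Genes were tested if 3 or more mice of a group had over 20 counts after median-of-ratios scaling. The test was the quasi-likelihood test of edgeR 4.0.16 in R 4.3.3, with TMM normalization and 1 coefficient per group over the 4 groups of a data set, or over both tissues for the tissue comparisons (genotypes averaged). Each p-value was adjusted over all genes tested, with 0.05 as the threshold. CPM per kb used the longest transcript. The script was tested on simulated counts. A gene that passed was described by its value in every mouse, up to the 12 with the smallest p per comparison, and the other genes by their ranges. Alternatives were DESeq2 1.42.0, its size factors within edgeR, no filter, fits of only the groups compared, GC and length trends removed (splines, 5 degrees of freedom), a threshold of 0.01, all 20 continuous hippocampi, a replicate block and each mouse left out. A covariate for how the acute libraries divide by low-quality reads was carried over from earlier results. Fits that kept AS vehicle mice of 1 side of that division were chosen after seeing the data. The tables hold 0 columns of other samples.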

Additional observations from a re-analysis of the deposited data

Results flagged for a closer look

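In groups of 4 to 6 mice, 5 of the 97 sets of values examined held a mouse whose gap to its nearest neighbour was unusually large for the range of its group, which is about the number that chance gives (1 in 20). Of these, 3 were the liver L10 among the AS CORT livers, with 179.8 CPM for Fdft1, 149.8 CPM for Lss and 229 CPM for Dhcr7. The liver L2 stood out among AS vehicle livers with 255 CPM for Stard4, and the hippocampus H10 among WT CORT mice of the acute experiment with 1.03 CPM for Fdps, a gene at low counts that shares exon bases with another gene. The acute CORT response differed between the genotypes for Dhcr7 by the interaction test of edgeR, at -0.47 on the log2 scale. This call was lost in 15 of 32 alternatives, with an adjusted p of up to 0.907, and the value was -0.28 with the division of the acute libraries as a covariate.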

How the results depend on the processing

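Counts of the 28 genes called were within 1.5 times the reported count, or stayed at 0, in 424 of 471 combinations of comparison and alternative, and 2 of the named changes turned direction. These were Abcg1 between AS and WT mice with acute CORT, at 0.085 with the division of the acute libraries as a covariate, and Srebf2 between tissues, at 1.26 with GC and length trends removed. At an adjusted p below 0.01, the calls were 3 for acute CORT in AS mice, 2 between the genotypes with acute CORT, 0 for the acute interaction, 3 and 7 for CORT in WT and AS hippocampus of the continuous experiment, and 7 for CORT in AS liver. The acute interaction gave 3 calls with DESeq2, 2 with median-of-ratios size factors and 0 with GC and length trends removed. With the division as a covariate there were 0 calls for acute CORT in AS mice, 0 between the genotypes with acute CORT and 0 for the acute interaction. With the 2 AS vehicle mice of the upper side alone, acute CORT in AS mice gave 0 and the interaction 0, and with the 4 of the lower side alone the interaction gave 6. DESeq2 gave 1 call between vehicle hippocampi of the continuous experiment, 5 between the genotypes in CORT livers and 1 for the liver interaction. The same 2 liver comparisons gave 2 and 1 without a filter and the former gave 2 with GC and length trends removed, while CORT in WT liver gave 4 in a fit of its 2 groups alone. The share of all genes that passed is not given beside these counts, nor beside those with 1 mouse left out. It can move as well. For CORT in AS liver it was 27.5% in the reported fit and 29.3% without L10. These counts therefore do not show shifts particular to the 28 genes, and the cause of the shifts was not tested.

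Leaving out 1 mouse at a time gave 6 to 9 calls between the genotypes with acute CORT (Fdps counted), 0 to 1 with acute vehicle (1 without WT CORT mouse H10), 4 to 9 for acute CORT in AS mice, 0 to 5 for the acute interaction, 3 to 9 and 9 to 13 for CORT in WT and AS hippocampus of the continuous experiment, 1 to 10 between the genotypes in CORT livers, 10 to 20 and 2 to 4 for CORT in AS and WT liver, 0 to 1 for the liver interaction, 3 to 5 for the difference of the CORT change between tissues and 28 between tissues.

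Hippocampi and livers carry the same numbers, each with the same group in both tissues, but the labels do not say that a number marks a mouse. With the number as a replicate block over the 18 numbers with both tissues, the tissues differed in 28 genes and their CORT changes in 3, the same counts as without the pairing. The deviations of the 2 samples of a number from their group means correlated between -0.081 and 0.076 over genes, with 0 of 18 over 0.1 and 4 hippocampi closest to the liver of their own number. Within a tissue, groups share no number, so that no block could be fitted there. Groups of 4 to 6 mice limit all comparisons. Those of the livers, with 5 per group, are limited also by the spread of the enzymes between livers. Counts near the floor limit Fdps in hippocampus.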
